A study of Mus musculus with 6 samples.

Results

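Here 10 transcription factor genes grouped with the granulocyte and monocyte lineages were followed in bone marrow KSL cells labelled as lacking Runx1 and Runx3. The 10 genes were Spi1, Irf8, Cebpa, Cebpb, Cebpd, Cebpe, Cebpg, Gfi1, Gfi1b and Id2, and each was represented by 1 probe set with a single gene symbol among the 19938 genes tested. KSL cells carry cKit and Sca1 and no lineage markers, and hold blood stem cells with their earliest descendants. The double knockout (DKO) samples had the genotype Runx1fl/fl;Runx3fl/fl;Mx1-Cre+, while the wild-type (WT) samples came from Runx1fl/fl;Runx3fl/fl;Mx1-Cre- littermates, with 3 arrays in each group. Both groups carried the floxed alleles and had a C57BL/6 background, with 3 backcross generations recorded. Both came under a protocol of 7 injections of 600 µg pIpC given from 4 weeks of age. The RNA pIpC is double-stranded and induces Cre through the interferon-responsive Mx1 promoter. The sample labels call the KSL cells untreated. WT animals had no transgene, so an effect of Cre and an effect of the deletion cannot be told apart. The design text states that each WT sample pooled 3 mice. It does not state this for the DKO samples and counts 6 mice in all, so p-values measure the spread between samples whose make-up differs or is unsettled.

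These factors work as a network. PU.1, the ETS factor encoded by Spi1, and C/EBPalpha, a basic leucine zipper factor, open the myeloid programme in early progenitors, and Runx1 is known to bind the upstream enhancer of Spi1. Irf8 binds DNA together with PU.1 and favours monocytes and dendritic cells over neutrophils. Gfi1 is a repressor that favours neutrophils, its paralog Gfi1b acts mainly in red cell and platelet precursors, and Id2 blocks the E proteins, which otherwise promote lymphoid fates.

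The signals of the targeted genes were set beside the labels. Runx1 signal was 9.22 to 9.37 in DKO-labelled samples and 8.38 to 8.53 in WT samples, higher by 0.82 (limma adjusted p = 0.000427), and Runx3 signal was 7.34 to 7.40 in DKO-labelled samples and 7.47 to 7.59 in WT samples (-0.15, adjusted p = 0.253). Runx1 runs against a knockout label. A gene-level signal that can include exons outside the deletion does not check it, so DKO stands for samples labelled DKO and every direction is that of the labels.

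In DKO samples 5 of the 10 genes fell and 0 rose, where 7.69% of all genes tested fell and 9.71% rose (limma, Benjamini-Hochberg adjusted p under 0.05 over all genes). At an unadjusted limma p under 0.05, 6 were lower and 1 was higher, a threshold that 6168 of the 19938 genes passed in either direction. Irf8, Spi1, Id2 and Cebpe fell with groups that did not overlap, a pattern in which DKO lay below WT for 19.6% of all genes. Cebpa fell at the edge of the threshold. The differences of Cebpb, Cebpd, Cebpg, Gfi1 and Gfi1b did not pass. The median difference of the 10 genes was -0.29 on the log2 scale, beside -0.04 for all genes. A signal of bulk cells falls alike when fewer cells express a gene and when each cell holds less of its RNA.

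**Figure D1:**
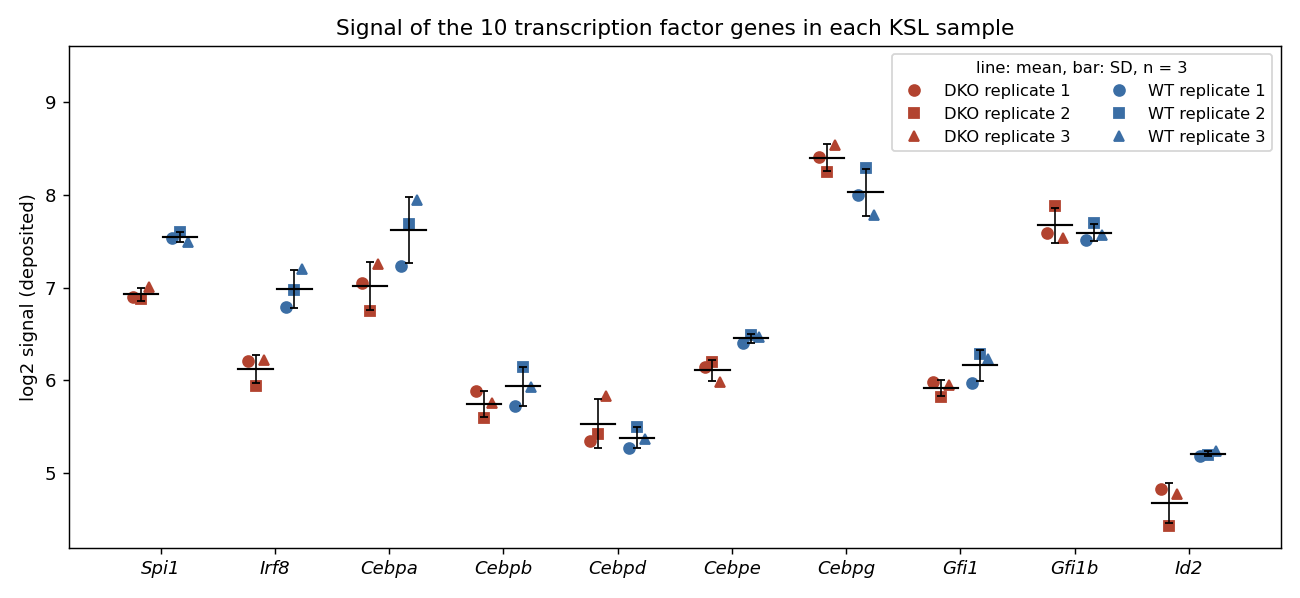
The log2 signal of each gene is plotted for every sample, with DKO left of WT, horizontal lines at the mean of 3 samples and bars for the SD. The DKO and WT points of Spi1, Irf8, Cebpe and Id2 are separate, while those of the other 6 genes overlap.

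The promoter sequences of the genes that fell are shown because Runx proteins, PU.1, C/EBP and Gfi1 are the DNA-binding factors at issue. Windows from RefSeq (GRCm38.p6), of 250 bases before to 50 after a gene's start, were at hand for 7 of the 10 genes, with 9 windows in all, and not for Spi1, Cebpd and Cebpe. Below are the 250 bases before the start for Irf8, Cebpa and Id2, 5′ to 3′ on the gene's strand, with capitals for every letter run searched.
Irf8, first start, chr8:120736108-120736357, plus strand: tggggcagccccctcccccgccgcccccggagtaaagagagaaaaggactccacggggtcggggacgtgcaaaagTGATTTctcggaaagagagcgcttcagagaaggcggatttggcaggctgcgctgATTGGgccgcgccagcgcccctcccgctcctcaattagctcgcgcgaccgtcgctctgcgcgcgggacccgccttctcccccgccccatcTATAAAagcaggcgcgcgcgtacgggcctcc
Irf8, second start, chr8:120738389-120738638, plus strand: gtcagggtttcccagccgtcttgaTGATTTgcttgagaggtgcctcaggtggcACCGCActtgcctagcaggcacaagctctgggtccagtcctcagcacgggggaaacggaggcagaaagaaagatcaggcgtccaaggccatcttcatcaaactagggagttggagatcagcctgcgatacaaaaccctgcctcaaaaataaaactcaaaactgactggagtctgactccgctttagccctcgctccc
Cebpa, chr7:35119043-35119292, plus strand: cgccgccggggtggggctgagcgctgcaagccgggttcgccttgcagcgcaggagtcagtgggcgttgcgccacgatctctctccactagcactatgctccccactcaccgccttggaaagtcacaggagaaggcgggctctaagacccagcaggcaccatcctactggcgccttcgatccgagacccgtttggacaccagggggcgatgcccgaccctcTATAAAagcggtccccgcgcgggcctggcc
Id2, chr12:25096093-25096342, minus strand: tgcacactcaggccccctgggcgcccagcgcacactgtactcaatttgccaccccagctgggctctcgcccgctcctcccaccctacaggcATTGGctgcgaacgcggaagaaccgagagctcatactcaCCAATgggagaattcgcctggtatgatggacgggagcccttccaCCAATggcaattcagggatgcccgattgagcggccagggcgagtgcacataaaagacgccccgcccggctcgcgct

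Both strands of each 300-base window were searched. The Runx core TGTGGT was in 0 of the 9 windows of these genes and in 16.8% of 32851 windows of all genes. Its variant TGCGGT was in 1 of the 9, on the opposite strand 197 bases before the second start of Irf8, and in 6.45% of all windows. The PU.1 core GAGGAA was in 0 of 9 and in 28.3% of all windows. The C/EBP pattern TTGCNNAA was in 1 of 9, the first window of Gfi1, and in 10.8% of all windows. The Gfi1 core AAATCA was in 3 of 9, both windows of Irf8 and the one of Gfi1b, and in 14.0% of all windows. The general promoter elements TATAAA and CCAAT, added to the search after the sequences had been read, were in 3 and 4 of 9 windows and in 13.6% and 37.4% of all windows. Among the sequences above, Irf8 (first start) and Cebpa hold TATAAA 31 and 30 bases before the start, and Id2 holds CCAAT or its complement at 3 places. The distal enhancers of these genes were not searched.

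Spi1 had log2 signals of 6.90, 6.88 and 7.00 in DKO samples, against 7.54, 7.60 and 7.49 in WT samples. Every DKO sample lay well below every WT sample, and the samples within each group were close together. The mean was 6.93 ± 0.07 in DKO and 7.54 ± 0.05 in WT (SD, n = 3 each), which gave a log2 difference of -0.62 (SE 0.085, limma adjusted p = 0.00138) and a DKO to WT ratio of 0.651. PU.1 is known to act by dose in progenitors. Over 16 alternatives, which changed the normalisation, the filter, the fit or left out 1 sample, the difference stayed between -0.67 and -0.59, with adjusted p of 0.000885 to 0.00943.

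Irf8, the partner of PU.1 in monocyte and dendritic cell precursors, fell the most of the 10. Its signals were 6.21, 5.94 and 6.22 in DKO samples, against 6.79, 6.97 and 7.20 in WT samples. The groups were separate, and DKO replicate 2 was the lowest sample. Irf8 averaged 6.12 ± 0.15 in DKO and 6.99 ± 0.21 in WT, a difference of -0.87 (SE 0.124, limma adjusted p = 0.00173) and a DKO to WT ratio of 0.549. The difference ranged from -0.96 to -0.76 over 16 alternatives, and the adjusted p from 0.00125 to 0.00881.

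Id2, an inhibitor of E proteins that is used by dendritic and innate lymphoid cells, was a dim gene here. Its signals were 4.83, 4.44 and 4.77 in DKO samples, against 5.19, 5.20 and 5.24 in WT samples. The WT samples were nearly equal, whereas the DKO samples spread downward, with replicate 2 the lowest. Id2 averaged 4.68 ± 0.21 in DKO and 5.21 ± 0.03 in WT, a difference of -0.53 (SE 0.113, limma adjusted p = 0.0113). All 3 DKO values lay under the lower quartile of their arrays and all 6 values below the array medians, so the size of this fall is uncertain. It was -0.41 without DKO replicate 2 (adjusted p = 0.0316), the end of its range nearest to 0.

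**Figure D2:**
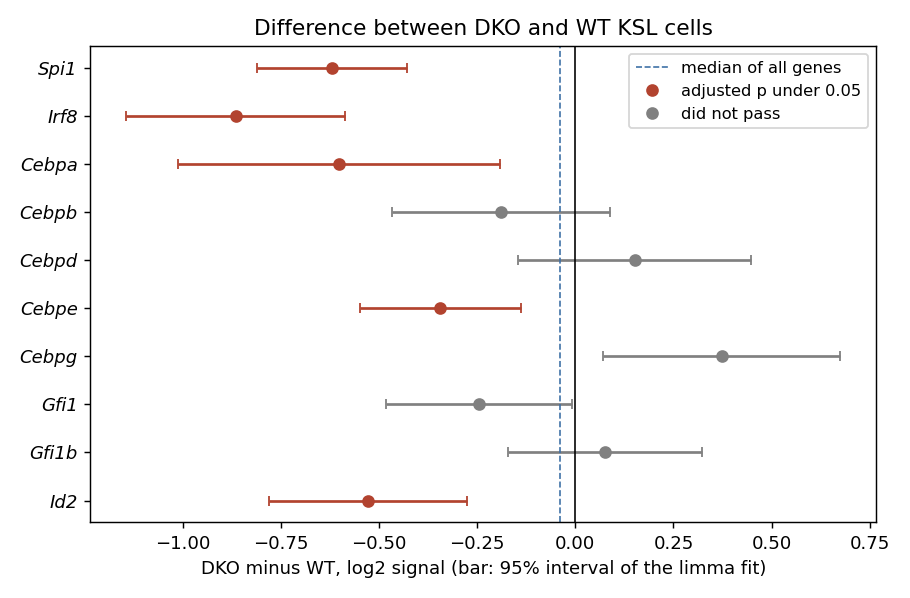
Points are differences, DKO minus WT, in log2 signal, and bars are 95% intervals of the limma fit. Red marks the 5 genes past the threshold, all left of 0, with Irf8 at -0.87 and Spi1 at -0.62. The dashed line is the median of all genes at -0.04.

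Members of the C/EBP family share a type of DNA-binding domain and pair with each other, but act at different steps of granulocyte formation. Cebpa and Cebpe fell, Cebpb and Cebpd differed by -0.19 and 0.15 without passing, and Cebpg had a positive difference of 0.37, also short of the threshold.

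Cebpa, which is needed to form granulocyte-monocyte progenitors, had signals of 7.05, 6.75 and 7.26 in DKO samples, against 7.23, 7.69 and 7.94 in WT samples. DKO replicate 3 overlapped WT replicate 1, and both groups were widely spread. Cebpa averaged 7.02 ± 0.26 in DKO and 7.62 ± 0.36 in WT, a difference of -0.60 (SE 0.183, limma adjusted p = 0.0499). Of 16 alternatives 8 lost this call, with adjusted p ranging from 0.00939 to 0.162. Leaving out any single sample but WT replicate 1 ended it, and the difference was -0.80 without that sample, -0.47 without DKO replicate 2 (adjusted p = 0.162) and -0.44 without WT replicate 3 (0.149).

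Cebpe, a factor of late granulocyte maturation whose protein switches on secondary granule genes, had signals of 6.15, 6.20 and 5.98 in DKO samples, against 6.40, 6.49 and 6.47 in WT samples. The groups were separate and the gap between them was small. Cebpe averaged 6.11 ± 0.11 in DKO and 6.45 ± 0.05 in WT, a difference of -0.34 (SE 0.0914, limma adjusted p = 0.0296). The call was lost in 6 of 16 alternatives, among them the removal of each array's trend with signal and with gene span, the length of the gene in the genome (-0.26, adjusted p = 0.0854) and the omission of DKO replicate 3 (-0.28, adjusted p = 0.115), the highest of its range of 0.0178 to 0.115. It was also lost without DKO replicate 1 (0.0721), WT replicate 2 (0.0662) or WT replicate 3 (0.0753).

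Cebpg encodes a small C/EBP protein that lacks a classical activation domain and pairs with other members. Its signals were 8.41, 8.25 and 8.53 in DKO samples, against 7.999, 8.29 and 7.78 in WT samples. The DKO samples were higher except that replicate 2 lay below WT replicate 2. Cebpg averaged 8.40 ± 0.14 in DKO and 8.02 ± 0.25 in WT, a difference of 0.37 (SE 0.135, limma adjusted p = 0.0909, 95% interval 0.07 to 0.68) that passed the threshold only without WT replicate 2 (0.51, adjusted p = 0.0233, the lowest over 16 alternatives, of which the highest was 0.263). Cebpg and Cebpa are near neighbours in the genome, with 2 annotated genes between them in GRCm38.p6. The signal of Cebpa minus that of Cebpg lay between -1.50 and -1.28 in DKO samples and between -0.77 and 0.16 in WT samples.

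Cebpb, the C/EBP of emergency granulocyte production, had signals of 5.88, 5.60 and 5.76 in DKO samples, against 5.73, 6.15 and 5.93 in WT samples. The groups overlapped, and the difference of -0.19 did not pass (limma adjusted p = 0.339, 95% interval -0.47 to 0.09). It was -0.083 without WT replicate 2, -0.12 without DKO replicate 2 and -0.29 without WT replicate 1. Cebpd, a gene induced in inflammation and in maturing granulocytes, had signals of 5.34, 5.43 and 5.83 in DKO samples, against 5.28, 5.50 and 5.37 in WT samples. Its difference of 0.15 (adjusted p = 0.489, 95% interval -0.15 to 0.45) rested on DKO replicate 3 and was 0.0025 without it.

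Gfi1, the repressor of neutrophil precursors, had signals of 5.98, 5.82 and 5.95 in DKO samples, against 5.97, 6.29 and 6.23 in WT samples. DKO replicates 2 and 3 lay below all WT samples, and DKO replicate 1 lay just above WT replicate 1. Gfi1 averaged 5.92 ± 0.09 in DKO and 6.16 ± 0.17 in WT, a difference of -0.25, short of the threshold (limma adjusted p = 0.148, 95% interval -0.48 to -0.01). Without WT replicate 1 it was -0.34 and passed (adjusted p = 0.046, the lowest over 16 alternatives, of which the highest was 0.352).

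Gfi1b, the paralog of red cell and platelet precursors, had signals of 7.59, 7.88 and 7.54 in DKO samples, against 7.51, 7.69 and 7.57 in WT samples. The groups overlapped, and the difference of 0.08 did not pass (limma adjusted p = 0.687, 95% interval -0.17 to 0.32). It was -0.029 without DKO replicate 2. Gfi1b minus Gfi1 lay between 1.58 and 2.06 in DKO samples and between 1.34 and 1.54 in WT samples, without overlap.

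Of these genes, 9 pairs were compared by the within-array difference of their signals, with an exact two-sided permutation test of 3 against 3 samples that cannot give a p below 0.1. That p was reached by 4 pairs, with a Benjamini-Hochberg adjusted p of 0.225, so none was called different. The changes of these pairs differed by -0.97 for Cebpa minus Cebpg, -0.41 for Cebpa minus Cebpb, -0.37 for Spi1 minus Gfi1 and 0.32 for Gfi1b minus Gfi1. Spi1 and Cebpa had almost equal falls, differing by -0.02 (SE 0.246, exact p = 1), an error that leaves room for unequal changes. The other pairs were Spi1 with Irf8 (0.25, exact p = 0.2), Spi1 with Id2 (-0.09, exact p = 0.6), Cebpa with Cebpe (-0.26, exact p = 0.5) and Cebpb with Cebpd (-0.34, exact p = 0.2). With 1 sample left out, Gfi1b minus Gfi1 ranged from 0.17 to 0.40, Cebpa minus Cebpb from -0.53 to -0.25, Spi1 minus Irf8 from 0.12 to 0.34, Cebpa minus Cebpe from -0.44 to -0.078, Cebpb minus Cebpd from -0.50 to -0.20 and Spi1 minus Id2 from -0.19 to -0.00081.

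**Figure D3:**
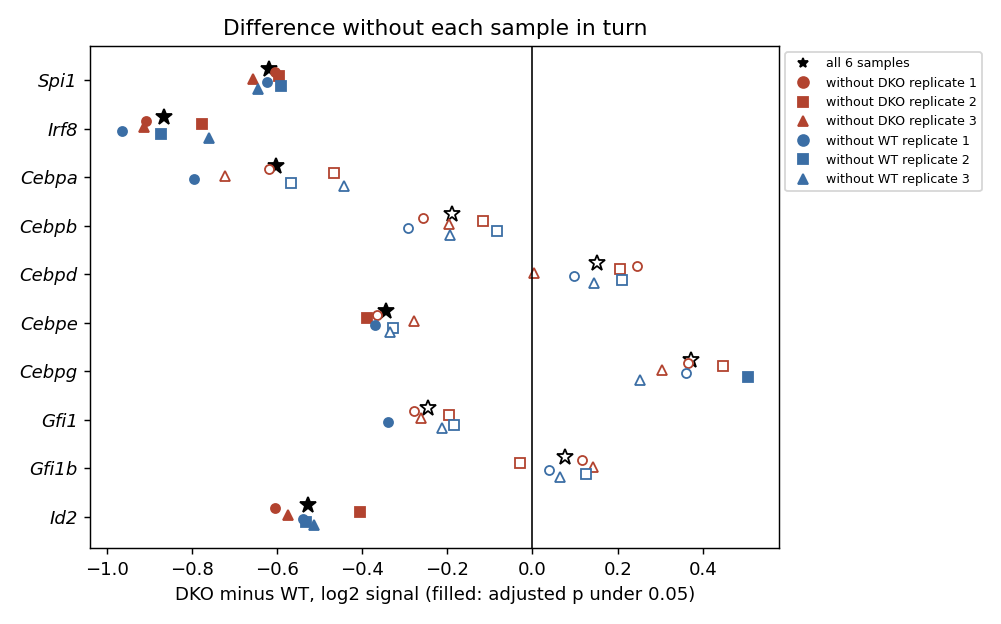
Each symbol is the difference, DKO minus WT, in log2 signal for all 6 samples (star) or without 1 sample, and filled symbols passed the adjusted p threshold. Spi1, Irf8 and Id2 stay filled throughout, while Cebpa and Cebpe change between filled and open. Cebpg is filled only without WT replicate 2, and Gfi1 only without WT replicate 1.

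The order of the samples within a group was counted over the 10 genes, without a test. DKO replicate 2 was the lowest DKO sample for 7 of the 10, beside 32.8% of all genes, and the exceptions were Cebpd, Cebpe and Gfi1b. WT replicate 1 was the lowest WT sample for 8 of the 10, beside 31.5% of all genes, with Spi1 and Cebpg as exceptions. Relative to the WT mean, DKO replicate 2 stood at -1.04 for Irf8, -0.87 for Cebpa and -0.77 for Id2. Without DKO replicate 2, Irf8 was at -0.78 (limma adjusted p = 0.00881) and Spi1 at -0.60 (0.00878). By the Pearson correlation of log2 signals over the 6 arrays, the genes most like Spi1 were Sf3b5, Sart1 and Clpp (0.999, 0.998 and 0.997), a likeness set mostly by the gap between the groups.

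**Figure D4:**
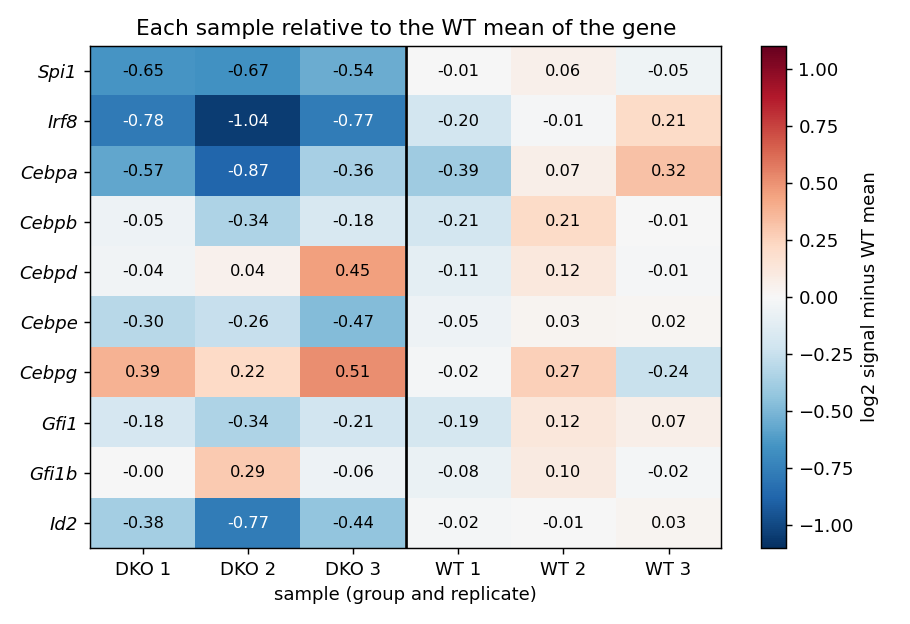
Colours and numbers give the log2 signal of each gene in each sample minus the mean of the 3 WT samples. The DKO columns are blue in all 3 samples for Spi1, Irf8, Cebpa, Cebpe, Id2, Cebpb and Gfi1, and red for Cebpg.

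Genes known to be controlled by PU.1 and C/EBP factors moved in both directions. Of 23 tested, 7 fell, 4 rose and 12 did not pass, and their median difference was -0.25 (-0.04 for all genes). Over all genes tested 7.69% fell and 9.71% rose, and these shares stand beside the counts of every list below. The lists were chosen with earlier results of these data known, and no set test was run. The primary granule gene Elane, which encodes neutrophil elastase, had signals of 6.12, 5.48 and 5.59 in DKO samples, against 8.20, 7.94 and 7.94 in WT samples, a difference of -2.30 (limma adjusted p = 4.67e-05). Prtn3, which encodes a related protease, fell by 0.60 (adjusted p = 0.00536), and Ms4a3, a marker of granulocyte-monocyte progenitors, fell by 1.84 (1.46e-05). Flt3, a receptor gene bound by PU.1, fell by 1.32 (adjusted p = 0.000434), and Cybb and Ncf1, subunit genes of the phagocyte oxidase, fell by 0.82 and 0.62 (0.00571 and 0.0091).

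Mpo, the gene of myeloperoxidase, had a strong signal in these cells. Its signals were 11.56, 10.97 and 11.42 in DKO samples, against 11.52, 11.53 and 11.49 in WT samples. Only DKO replicate 2 lay apart, and the difference of -0.20 did not pass (limma adjusted p = 0.382). Ctsg, the gene of another granule protease, had signals of 9.07, 7.76 and 9.29 in DKO samples, against 9.51, 9.65 and 9.72 in WT samples, with DKO replicate 2 again lowest (-0.92, adjusted p = 0.0829). The difference of Ctsg was -0.44 without DKO replicate 2 (adjusted p = 0.0458) and -1.21 without DKO replicate 3 (0.0461), and it passed in 3 of 16 alternatives, with adjusted p of 0.0376 to 0.183.

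Receptors for myeloid growth factors split. Csf2ra, the alpha chain of the GM-CSF receptor, fell by 0.39 (limma adjusted p = 0.0139, and 0.0634 without DKO replicate 1, the highest of its range from 0.00624), whereas Csf3r, the G-CSF receptor, rose by 0.60 (adjusted p = 0.00727). Csf1r, the M-CSF receptor, had a log2 difference of -0.25 (adjusted p = 0.324). The other rises of the list were Btk, a tyrosine kinase gene that PU.1 is known to activate, by 1.08 (adjusted p = 6.39e-05), Lyz2 by 0.35 and Ncf4 by 0.36, both lost in several alternatives (adjusted p of 0.0168 to 0.11 and of 0.0213 to 0.126).

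Among 16 genes tied to Irf8 or to the monocyte and dendritic cell lines, Id2 included, 5 fell, 1 rose and 10 did not pass, with a median difference of -0.19. Ly86, which encodes a partner of a Toll-like receptor relative, had signals of 6.53, 6.00 and 6.74 in DKO samples, against 7.28, 7.31 and 7.91 in WT samples, a difference of -1.08 (limma adjusted p = 0.00756). Ccr2, the chemokine receptor of monocytes, fell by 0.75 (adjusted p = 0.00322) and Blnk, an adaptor of B cells and myeloid cells, fell by 0.58 (0.00654). Naglu, a lysosomal enzyme gene, fell by 0.29, a call lost in 9 of 15 alternatives (adjusted p of 0.0349 to 0.144). Pml, an interferon-induced gene, rose by 0.55 (adjusted p = 0.00367). DKO replicate 2 was the lowest DKO sample for 11 of these 16 genes, beside 32.8% of all genes. In the other lists it was lowest for 8 of 23 PU.1 and C/EBP targets and 10 of 25 partners and regulators. The counts were 3 of 14 for monocyte and macrophage regulators, 3 of 13 for corepressors and 2 of 8 for E protein and Id genes.

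**Figure D5:**
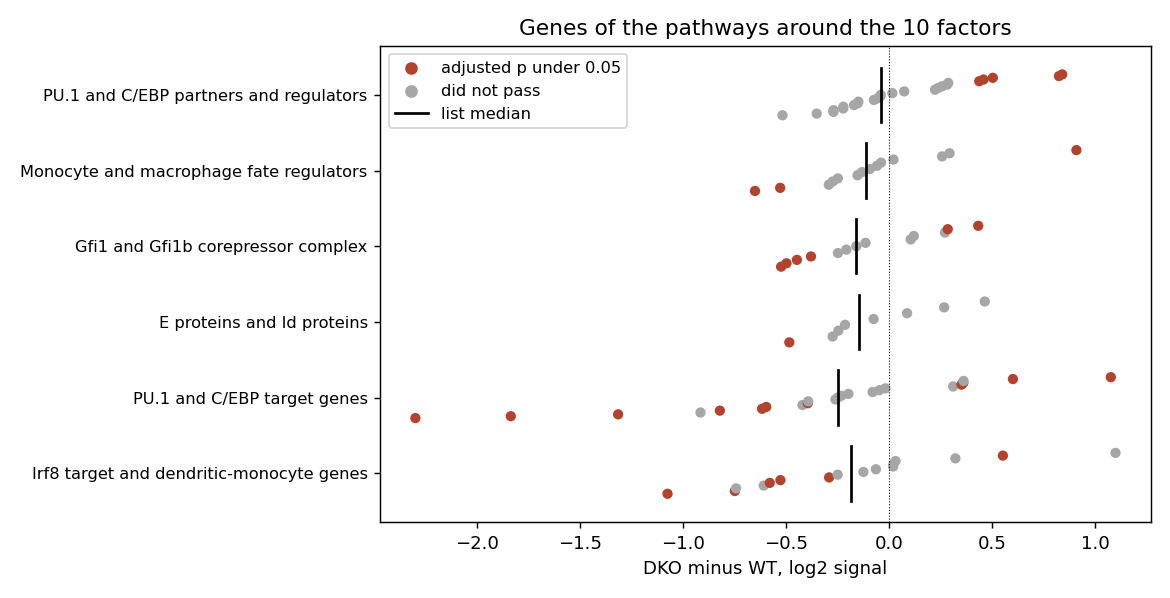
Each point is 1 gene of a list, placed by its difference, DKO minus WT, in log2 signal. Red points passed the adjusted p threshold and black lines are list medians, of which the PU.1 and C/EBP target list has the lowest at -0.25.

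Partners and regulators of PU.1 and C/EBP factors gave 5 rises and 0 falls by limma among 25 tested, with a median difference of -0.04. At an unadjusted p under 0.05, 3 were lower and 7 higher, where 6168 of all 19938 genes passed in either direction. One of the 5 rises was Runx1 itself. The others were Elf1, an ETS factor (0.84, limma adjusted p = 0.000512), Rb1, the retinoblastoma gene (0.50, 0.00714), Etv6, an ETS repressor (0.46, 0.00732), and Cdk6, a kinase of the cell cycle (0.44, 0.0116). The list held 2 falls under quantile normalisation, 2 under cyclic loess, and 1 with the trend removed or without DKO replicate 3. Removal of the trend with signal and gene span ended the calls of Etv6 (0.13, adjusted p = 0.375) and Cdk6 (0.07, adjusted p = 0.702). Of 14 regulators of monocyte and macrophage fate, 1 rose, 2 fell and 11 did not pass. Zeb2, a repressor needed by monocytes and dendritic cells, rose by 0.91 (adjusted p = 0.000227), and Nfil3, a leucine zipper factor, fell by 0.65 (adjusted p = 0.0107). The fall of Egr1, by 0.53 (adjusted p = 0.0335), was lost in 6 of 15 alternatives (0.0127 to 0.102). Bhlhe40, a repressor gene, had a difference of 0.29 (adjusted p = 0.0886).

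The corepressors through which Gfi1 and Gfi1b silence genes gave 4 falls, 2 rises and 7 not passing among 13. The rises numbered 0 under quantile normalisation and with the trend removed. Rcor2, a scaffold related to CoREST, fell by 0.50 (limma adjusted p = 0.00601), the histone methyltransferase gene Ehmt2 fell by 0.52 (0.0109), Ajuba, a linker of Gfi1 to histone deacetylases, fell by 0.45 (0.00879) and Hmg20b fell by 0.38 (0.0221). Ehmt2 lost its call without DKO replicate 3 (0.0512), and Hmg20b without DKO replicate 1 (0.0896), without WT replicate 1 (0.0534) or with the trend removed (0.0517). Phf21a rose by 0.43 (adjusted p = 0.00785), and was at 0.20 (0.161) with the trend removed and at 0.30 (0.0514) under quantile normalisation. Kdm1a, the histone demethylase LSD1, rose by 0.28 (adjusted p = 0.0458), a call that 11 of 16 alternatives lost (0.027 to 0.498). Of 8 E protein and Id genes, 1 fell and 7 did not pass. The fall was that of Tcf3, the E2A gene, which fell by 0.48 (adjusted p = 0.017), lost without DKO replicate 1 (0.0626), DKO replicate 3 (0.073) or WT replicate 3 (0.0572), in a range from 0.00791. Tcf12, which encodes the E protein HEB, had a difference of 0.46 at the edge of the threshold (limma adjusted p = 0.05 after rounding, and not under it). It passed in 6 of 16 alternatives, up to 0.63 without WT replicate 1 (adjusted p = 0.00605), and was at 0.27 (0.239) with the trend removed. Id4, an inhibitor of E proteins, had a difference of -0.25 (0.0901), and Tal1, a partner of E proteins, one of 0.27 (0.122), which passed without WT replicate 2 (0.37, adjusted p = 0.0366).

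Of 8 stem and progenitor markers tested, 2 rose, 2 fell and 4 did not pass. Beside this and the marker counts that follow, 9.71% of all genes rose and 7.69% fell. Kit, the receptor by which the cells were sorted, had signals of 10.35 to 10.72 in DKO and 9.63 to 9.85 in WT and rose by 0.73 (limma adjusted p = 0.00289), and the homeobox gene Meis1 rose by 0.88 (0.0027). Flt3 fell, as given above, and Mecom, a stem cell transcription factor gene, fell by 0.67 (0.00585). Cd34 had signals of 10.28 to 10.52 in DKO and 10.26 to 10.49 in WT. Of 8 markers of mature neutrophils 1 rose, Cxcr2, and 0 fell by limma (3 were lower at an unadjusted p under 0.05), with a mean signal over the markers of 5.47 to 5.65 in DKO samples and 5.27 to 5.80 in WT samples. Cxcr2, a chemokine receptor, rose by 3.26 (adjusted p = 1.71e-05), and the differences of the other 7 were all below 0. Without Cxcr2, a choice made after its value was seen, the mean was 4.98 to 5.14 in DKO samples and 5.23 to 5.73 in WT samples, and the groups did not overlap. A lower DKO mean was fixed by that choice, so no conclusion is drawn from it. Among all genes 19.6% had DKO below WT without overlap. Of 9 monocyte and macrophage markers 0 rose and 0 fell by limma, with means of 5.31 to 5.46 in DKO samples and 5.42 to 5.57 in WT samples. At an unadjusted p under 0.05, 2 of these 9 were lower in DKO. Beside this and the neutrophil count, 6168 of all 19938 genes passed in either direction. On all 6 arrays 2 of the 8 neutrophil markers and 1 of the 9 monocyte and macrophage markers were under the lower quartile, among them Ltf and Adgre1. S100a9 was brighter, at 6.09 to 6.38 in DKO and 6.28 to 7.997 in WT. Cd68 was too, at 6.94 to 7.24 in DKO and 7.21 to 7.56 in WT. In DKO samples S100a8, Camp, Ngp and Mmp9 lay below the array medians of 5.98 to 6.00, with means of 5.22, 5.54, 5.05 and 4.78. So did Cd14, Mrc1, Vcam1, C1qa, C1qb and C1qc, and signals this dim limit what can be said of cell content. In 6 dendritic cell markers 1 fell, Flt3, and the means were 6.30 to 7.01 in DKO samples and 6.64 to 6.82 in WT samples. Beside Gfi1b, 2 of 5 erythroid markers fell, with means of 6.46 to 6.82 in DKO samples and 6.97 to 7.21 in WT samples. These were Car1 (-2.02) and Klf1 (-0.54), while Epor, Alas2 and Tfrc differed by -0.04, 0.09 and 0.10 without passing. Of 6 megakaryocyte and platelet markers 3 rose, with means of 7.04 to 7.66 in DKO samples and 6.70 to 6.96 in WT samples. The rises were Gp5 (2.80), Itga2b (0.91) and Gp9 (0.39), while Pf4, Ppbp and Vwf differed by -0.51, -0.44 and -0.12 without passing. Of 8 mast cell and basophil markers 3 rose and 3 fell, with means of 6.35 to 6.38 in DKO samples and 5.72 to 6.00 in WT samples. The rises were Cpa3 (3.43), Ms4a2 (2.24) and Hdc (1.27), and the falls Mcpt8 (-1.32), Prss34 (-0.82) and Fcer1a (-0.68). The mean of a list therefore does not stand for each of its markers. Whether shifts in cell types play a part in the falls of Irf8, Spi1, Cebpa, Cebpe and Id2 was not tested.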

How the data were processed

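The deposited values were log2 signals, 1 per probe set and array, on Affymetrix Mouse Gene 1.0 ST arrays. Per the labels the RNA was amplified with a NuGEN kit and labelled with biotin. The sample titles name the gene-level RMA default and the design text names MAS 5.0. Values of 1.25 to 13.7 with near-equal quartiles are those of a log2 scale. The submitters' processing notes name Affymetrix Expression Console 1.0, and the sources used here give no genome build. Probe sets with exactly 1 symbol were kept, the brightest per gene, which gave 19938 genes without a filter. Of these, 19856 matched RefSeq GRCm38.p6 by Entrez number. Groups and replicate numbers came from the labels, and the number of arrays limits precision.

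DKO minus WT was tested with limma 3.58.1 (R 4.3.3, lmFit, eBayes, two-sided, 5.52 prior and 4 residual degrees of freedom), without a replicate block. Same-numbered samples did not deviate together (r of -0.01, -0.10 and -0.04). In simulated data for this comparison over 19938 genes, 100 of 100 changes of 1 and 65 of 100 changes of 0.5 were recovered. In the same data 18 unchanged genes were called, and 1 gene was called where no gene had been changed. Only 100 genes of each size were changed, fewer than were called in the real data, so these rates need not hold there. Genes and lists were chosen with earlier results of these data known. Named are the 10 genes, Runx1, Runx3, the 4 genes of each list with the smallest p, the 3 genes most like Spi1, and markers whose values stand beside a result. Prtn3, Cybb, Ncf1, Csf2ra, Csf3r, Csf1r, Lyz2, Ncf4, Mpo, Ctsg, Cdk6, Naglu, Kdm1a and Hmg20b were named after their values were seen. Of 100 list genes 96 were tested, and the others were not analysed here.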

Additional observations from a re-analysis of the deposited data

How the results depend on the processing

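The deposited scale was replaced by quantile normalisation, by cyclic loess or by centring each array on its median. Other alternatives were omission of the dimmest 25% or 50% of genes, the mean of probe sets, a trended robust fit, weights per array, a replicate block, removal of trends with signal and gene span, and omission of each sample. Spi1 and Irf8 kept their direction and call in all 16, and Id2 in the 15 that tested it. Of the 10 genes, 5 fell with all samples. With the trends removed 3 fell, and with 1 sample left out 3 to 6 fell and 0 to 1 rose, with 3 falls without DKO replicate 1 or 3 or WT replicate 2 or 3. Over all genes 1936 rose and 1533 fell, and with 1 sample left out 1250 to 1868 rose and 843 to 1388 fell, with 843, 876 and 854 falls without DKO replicates 1, 2 and 3 and 1250 rises without DKO replicate 3. Under quantile normalisation 1542 rose and 1790 fell, so that 46.3% of calls were rises, beside 55.8% on the deposited scale. Rises among the PU.1 and C/EBP targets numbered 2 instead of 4 in 5 alternatives, and falls among the monocyte and macrophage regulators 1 instead of 2 in 6. Falls among the Irf8 and dendritic cell genes numbered 1 instead of 5 without the dimmest 50% of genes, where fewer are tested. Gfi1b, not called, ranged from -0.029 to 0.14 with 1 sample left out. The difference between the changes of Spi1 and Cebpa turned sign with array weights (0.0026) and ranged from -0.20 to 0.17 with 1 sample left out. With the replicate block 1772 genes rose and 1272 fell. Cebpe then had an adjusted p of 0.0567, and the block ended no other call among the 10 genes. The samples share only a number, and no sample deviated most like the sample of its own number. Causes of these shifts, the smaller number of samples included, were not tested. Signals under the lower quartile of an array, as for Id2 in DKO, limit what can be said of the size of a change.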
